A study of Homo sapiens and Mus musculus with 36 samples.

Results

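HuH-7, a human hepatocellular carcinoma line, was edited in DOT1L and treated with interferon (IFN), and its RNA was sequenced. The libraries described here are the 6 HuH-7 guide libraries with IFN, out of 36 libraries in the series, chosen by the guide and IFN in their titles. They comprise 2 libraries edited with the DOT1L guide sgRNA#1 (sg1), 2 edited with sgRNA#2 (sg2) and 2 with sgNeg2, the control guide, whose genotype is labelled WT. All 6 received IFN, so none of them shows the effect of IFN itself. The type, dose and duration of IFN, and whether an edited line is a clone or a pool, are not stated by the labels. Nothing in the labels places replicates in separate cultures, so each p-value rests on how far libraries of a group differ, which may be technical. Another 6 HuH-7 libraries, 2 each of sg1, sg2 and sgNeg2 with no IFN label, were fitted together with the 6, so that all 12 set the estimate of the spread, and they give the knockout effect without IFN. A further 3 HuH-7 libraries treated with EPZ-5676, a DOT1L inhibitor, for 7 days and 3 with DMSO shared no control with the edited libraries and were used only for the genes found here. They too carried no IFN label.

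DOT1L is the methyltransferase that places methyl groups on lysine 79 of histone H3 within transcribed genes. It acts with partners such as MLLT3 (AF9), which bring it to elongating RNA polymerase. Interferons signal through Janus kinases to STAT factors, which switch on genes through sites named ISRE (interferon-stimulated response element) and GAS (gamma-activated sequence). The products include guanylate-binding proteins, chemokines, antiviral enzymes and the antigen presentation machinery, and liver cells respond to interferon in this way.

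The libraries with IFN held 47594968 to 61227426 counts over 26457 gene symbols, and levels are given as CPM, counts relative to the library total after TMM scaling. All 18 hepatocyte markers on the list reached 5 CPM in at least 1 library, and their summed level was 10654 to 11135 CPM in knockout libraries and 11609 to 11766 CPM in sgNeg2 libraries. Of 21 leukocyte markers, 7 had no counts in any library, PTPRC and HBB among them, and LYZ and CD68 made up most of the sum. The first principal component over 12124 genes held 55.2% of the variance and placed the 4 knockout libraries between 13.5 and 19.4 and the sgNeg2 libraries at -32.5 and -32.3. The second held 25.6% and separated the guides, with sg2 at 14.6 and 21.2 and sg1 at -22.2 and -17.4.

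DOT1L itself, on chromosome 19, was measured at 42.5 and 46.5 CPM in sg1 libraries and 66.8 and 66.7 CPM in sg2 libraries, against 108 and 109 CPM in sgNeg2 libraries. The edited libraries lay below both controls, and transcript remained with both guides. The log2 change was -1.29 with sg1 and -0.71 with sg2, and -0.97 ± 0.16 with the guides pooled (adjusted p = 0.0011). Each value after a ± beside a log2 change is a standard error, and n is 4 knockout and 2 sgNeg2 libraries unless a guide is named. With the guides pooled, the 4 knockout libraries form 1 group of 2 guides, so differences between guides count as spread. Of the partners, MLLT3 fell to 15.3 and 12.2 CPM with sg1 and 11.8 and 12.1 CPM with sg2, against 20.2 and 21.1 CPM in sgNeg2 libraries (log2 -0.69 ± 0.11, adjusted p = 0.00115). It was the only partner called with the guides pooled. Of 16 genes on the list, DOT1L included, 2 fell and 0 rose, beside 5.27% lower among all genes tested. With the guides apart, 2 fell and 3 rose with sg1, and 8 fell and 1 rose with sg2. Among all genes tested 16.5% were lower with sg1 and 19.7% with sg2.

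In the knockout 13 of 15 chemokine genes, 5 of 7 guanylate-binding proteins, 8 of 13 mucosal defence genes, 8 of 16 surface proteins and 10 of 24 matrix genes rose, while 16 of 29 tRNA synthetase and amino acid genes fell. Of 16448 genes tested, 1170 were higher in the knockout (7.11%) and 867 were lower (5.27%) at an adjusted p below 0.05. A change of at least 2-fold was found for 735 of the rises and 68 of the falls. Of those 735 rises, 494 (67.2%) had a mean under 1 CPM in sgNeg2 libraries, where low counts limit precision. Among all genes tested the share was 24%, and among all called falls it was 3%. The genes that rose had a median of 1.52 CPM in sgNeg2 libraries and those that fell 53.1 CPM, beside 16.6 CPM for all genes tested. Without sgNeg2 replicate 1 the calls numbered 978, and without sgNeg2 replicate 2 they numbered 960, each with a lone control library assumed to vary like the other groups. With GC offsets, described with the guides below, the split was 1638 higher and 2690 lower. With the 6 IFN libraries fitted alone it was 815 higher and 185 lower, and with RLE scaling 1198 higher and 705 lower. The median log2 change over all genes tested was -0.058 in the fit of all 12 libraries and -0.063 with GC offsets. It was -0.008 with the 6 libraries alone and -0.038 with RLE scaling. The part of scaling in the number of falls was not tested. The 4 knockout and 2 sgNeg2 libraries did not overlap for 32.8% of all genes tested and for 2028 of the 2037 called, so a lack of overlap adds nothing to a call.

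The promoters of 6 of the genes that rose are shown. They are the largest rises among named genes of the interferon, chemokine, guanylate-binding protein, surface protein and tryptophan lists whose entry could be shown. The 6 belong to the surface protein, guanylate-binding protein and chemokine groups described below. IDO1, CD177 and NOS2 rose more than some of these and are not shown. Sequences are from RefSeq (GRCh38.p14), 5′ to 3′ on the gene's strand, from 250 bases before the start site to 50 after it. Capitals mark matches on either strand to 6 motifs. The ISRE core was searched as GAAA and GAAA with a gap of 2 bases, GAS as TTC and GAA with a gap of 3, and the NF-kappaB site as GGG and TTTCC with a gap of 2. The AP-1 site was TGA and TCA with a gap of 1, the TATA box was TATAAA and the E-box was CACCTG.
CD109, chr6:73695953-73696252, plus strand: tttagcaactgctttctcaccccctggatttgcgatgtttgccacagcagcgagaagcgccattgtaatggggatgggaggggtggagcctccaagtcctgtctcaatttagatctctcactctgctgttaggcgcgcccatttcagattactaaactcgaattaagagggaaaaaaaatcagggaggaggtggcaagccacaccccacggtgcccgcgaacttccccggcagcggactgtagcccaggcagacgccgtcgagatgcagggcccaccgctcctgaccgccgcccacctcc
CEACAM7, chr19:41688221-41688520, minus strand: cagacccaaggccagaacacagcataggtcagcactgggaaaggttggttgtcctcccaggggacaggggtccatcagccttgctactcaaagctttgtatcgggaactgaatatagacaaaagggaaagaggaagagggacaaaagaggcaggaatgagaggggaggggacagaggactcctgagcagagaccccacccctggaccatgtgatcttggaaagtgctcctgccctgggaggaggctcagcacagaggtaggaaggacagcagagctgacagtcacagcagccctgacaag
GBP6, chr1:89363809-89364108, plus strand: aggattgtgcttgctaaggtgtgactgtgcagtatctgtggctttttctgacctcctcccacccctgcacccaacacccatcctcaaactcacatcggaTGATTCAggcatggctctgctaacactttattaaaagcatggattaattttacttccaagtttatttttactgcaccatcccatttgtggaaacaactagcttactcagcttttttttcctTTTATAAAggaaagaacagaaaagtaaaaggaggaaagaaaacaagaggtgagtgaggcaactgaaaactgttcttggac
CXCL6, chr4:73836428-73836727, plus strand: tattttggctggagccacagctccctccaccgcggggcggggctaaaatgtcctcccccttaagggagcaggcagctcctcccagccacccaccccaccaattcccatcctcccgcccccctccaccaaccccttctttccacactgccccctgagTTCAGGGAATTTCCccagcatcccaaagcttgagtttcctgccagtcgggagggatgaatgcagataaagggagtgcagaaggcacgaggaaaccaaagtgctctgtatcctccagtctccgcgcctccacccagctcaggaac
CCL28, chr5:43412342-43412641, minus strand: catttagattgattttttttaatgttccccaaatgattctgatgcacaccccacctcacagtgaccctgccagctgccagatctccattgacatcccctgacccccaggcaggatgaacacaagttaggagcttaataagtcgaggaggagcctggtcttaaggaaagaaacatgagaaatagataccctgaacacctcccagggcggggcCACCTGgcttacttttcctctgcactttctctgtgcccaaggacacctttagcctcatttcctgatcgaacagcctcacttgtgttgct
CD82, chr11:44565413-44565712, plus strand: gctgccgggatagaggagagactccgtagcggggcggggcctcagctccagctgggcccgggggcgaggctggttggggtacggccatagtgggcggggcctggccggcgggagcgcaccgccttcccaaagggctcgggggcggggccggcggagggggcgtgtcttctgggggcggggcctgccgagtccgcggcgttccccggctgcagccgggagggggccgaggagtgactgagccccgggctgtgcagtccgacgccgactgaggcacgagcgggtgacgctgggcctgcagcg
CD109, CEACAM7 and CD82 held no match. In CXCL6 a GAS match at position -94 from the start site overlapped an NF-kappaB match at position -90, and both are within one run of capitals. GBP6 held an AP-1 match at position -151 and TATA box matches at -30 and -28 on opposite strands, which overlap. CCL28 held an E-box match at position -39.

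Over all 35116 promoters of the same length, 3.57% held the ISRE core, 7.66% the GAS letters, 7.71% the AP-1 letters, 1.91% the NF-kappaB letters, 11.5% the TATA box and 20.6% the E-box. Of 48 antiviral interferon-stimulated genes tested, 41 had a promoter entry, and 28 of these (68.3%) held the ISRE core. Of 15 chemokine genes tested, 12 had an entry, and 6 of these (50%) held the NF-kappaB letters.

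The largest rise among genes of at least 5 CPM was CD177, a surface glycoprotein best known from neutrophils, on chromosome 19. It measured 30.6 and 32.2 CPM with sg1 and 44.4 and 46.1 CPM with sg2, against 0.0473 and 0.259 CPM in sgNeg2 libraries (log2 7.90 ± 0.38, adjusted p = 5.16e-08). The groups were far apart, and a CD177 pseudogene can share reads with it. CD109, a surface protein that binds TGF-beta, measured 12.8 and 13.7 CPM with sg1 and 8.79 and 8.87 CPM with sg2, against 0.307 and 1.14 CPM in sgNeg2 libraries (log2 3.90 ± 0.37). CEACAM7, an adhesion protein of the carcinoembryonic antigen family, measured 8.57 and 7.11 CPM with sg1 and 8.74 and 7.91 CPM with sg2, against 0.638 and 0.475 CPM in sgNeg2 libraries (log2 3.86 ± 0.23). All edited libraries exceeded all control libraries for both genes, as the rule that chose them required. Of 16 surface proteins on the list, 8 rose and 0 fell, with a median log2 change of 0.85 beside -0.06 over all genes tested. CD82, a tetraspanin, was among them (log2 1.76 ± 0.21).

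**Figure D1:**
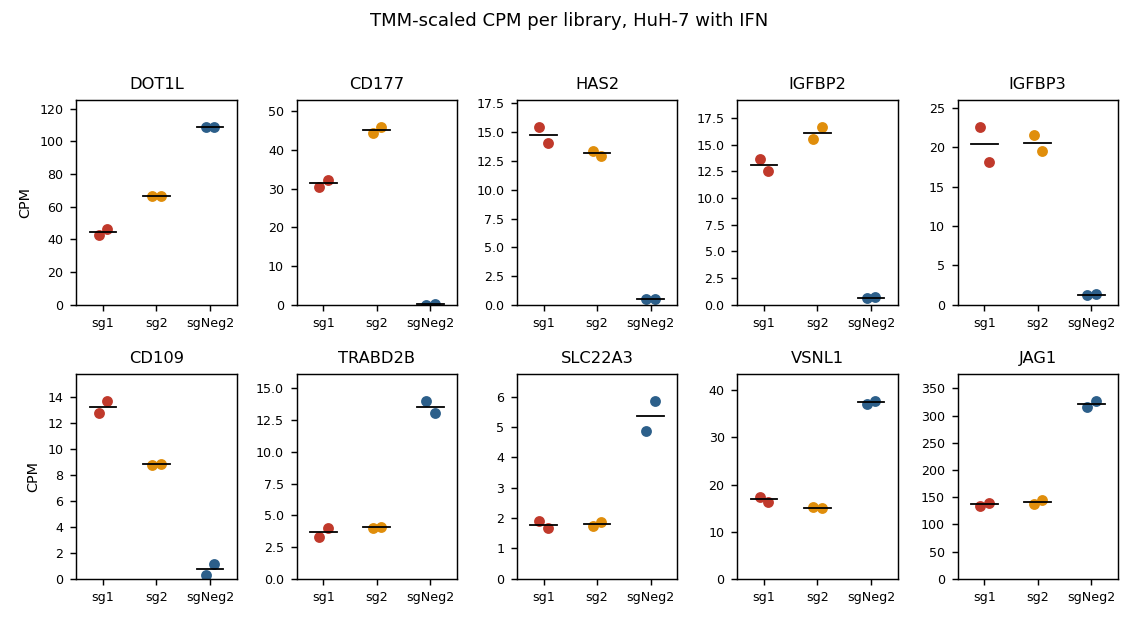
TMM-scaled CPM of 10 genes (vertical axes, from 0) in each HuH-7 library with IFN, for guide sg1, guide sg2 and sgNeg2. Points are libraries and bars are group means of 2. HAS2 measured 13 to 15.5 CPM in the 4 knockout libraries and 0.518 and 0.520 CPM in sgNeg2 libraries, while JAG1 measured 134 to 144 CPM in knockout libraries and 316 and 328 CPM in sgNeg2 libraries.

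HAS2, which makes the matrix polysaccharide hyaluronan, measured 15.5 and 14 CPM with sg1 and 13.4 and 13 CPM with sg2, against 0.520 and 0.518 CPM in sgNeg2 libraries (log2 4.74 ± 0.17, adjusted p = 4.63e-09). VCAN, the proteoglycan versican, which binds hyaluronan, measured 8.37 and 6.68 CPM with sg1 and 7.36 and 8.28 CPM with sg2, against 0.331 and 0.777 CPM in sgNeg2 libraries (log2 3.77 ± 0.28). Both were low in the control libraries and higher in every edited library, the latter as the rule that chose them required. Of 24 collagen and matrix protein genes, 10 rose and 2 fell (median log2 0.54), and 0 fell when either sgNeg2 library was left out. COL1A1 rose by 2.67 ± 0.29, COL6A2 by 1.73 ± 0.24, SPP1 (osteopontin) by 2.22 ± 0.11 and TGFBI by 2.11 ± 0.16 on the log2 scale. LAMA4, a laminin chain, and FMOD, the collagen-binding proteoglycan fibromodulin, were among the largest rises in the whole table, at log2 3.19 ± 0.23 and 3.21 ± 0.25. The summed level of 13 fibroblast and stellate cell markers was 66.2 to 75.2 CPM in knockout libraries and 86.0 to 92.3 CPM in sgNeg2 libraries, and PDGFRA, which fell (log2 -0.76 ± 0.10), made up most of it. Of the 9 markers tested, 4 rose (COL1A1, LUM, PDGFRB and DES) and 1 fell, with a median log2 change of 1.87, and 2 rose with the replicate block, with the 6 IFN libraries alone, without IFN sgNeg2 replicate 2 or without 1 of 3 libraries with no IFN (sgNeg2 replicate 1, sg1 replicate 1 and sg1 replicate 2). LUM measured 1.08 to 2.23 CPM in knockout libraries and 0.0473 and 0.0864 CPM in sgNeg2 libraries (log2 4.36 ± 0.55). COL1A2 was at or under 0.272 CPM in every library, and the part of such cells in the matrix genes was not tested.

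Binding proteins of insulin-like growth factors, which hold these factors in the extracellular space, were also among the largest rises. IGFBP2 measured 13.7 and 12.5 CPM with sg1 and 15.5 and 16.7 CPM with sg2, against 0.638 and 0.713 CPM in sgNeg2 libraries (log2 4.42 ± 0.29). IGFBP3 measured 22.6 and 18.1 CPM with sg1 and 21.5 and 19.5 CPM with sg2, against a mean of 1.29 ± 0.09 CPM in sgNeg2 libraries (SD, n = 2; log2 3.97 ± 0.27). The difference between guides did not pass the test for either gene (adjusted p for sg2 minus sg1 = 0.299 and 0.995). IGFBP4 also rose (log2 1.24 ± 0.19).

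Among guanylate-binding proteins, GTPases that act on intracellular pathogens, 5 of 7 rose and 0 fell (median log2 0.47). GBP5, on chromosome 1, measured 360 and 362 CPM with sg1 and 365 and 354 CPM with sg2, against 110 and 108 CPM in sgNeg2 libraries (log2 1.72 ± 0.08, adjusted p = 4.41e-08). GBP4 measured 67.3 and 62.3 CPM with sg1 and 53.9 and 57.3 CPM with sg2, against 19.9 and 21.5 CPM in sgNeg2 libraries (log2 1.54 ± 0.11). For GBP2 the edited libraries held 259 to 268 CPM and the sgNeg2 libraries 189 and 191 CPM (log2 0.47 ± 0.07). Every edited library exceeded both controls for these genes, as for nearly all called rises. GBP1, the most abundant member, measured 934 and 907 CPM with sg1 and 847 and 822 CPM with sg2, against 789 and 796 CPM in sgNeg2 libraries. The pooled change of 0.15 ± 0.09 did not pass the test (adjusted p = 0.369), but 3 of 20 alternatives called it higher. With the guides apart GBP1 rose by 0.22 with sg1 (adjusted p = 0.00508) and by 0.07 with sg2 (adjusted p = 0.277). With GC offsets the changes were 0.13 (adjusted p = 0.00664) and 0.23 (adjusted p = 2.96e-05). Without sgNeg2 replicate 1 or replicate 2, 3 members were called. GBP6 (log2 2.04 ± 0.53) was one of those lost, with adjusted p = 0.101 and 0.208.

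Of 15 chemokine genes tested, 13 rose and 0 fell, with a median log2 change of 0.88. Without sgNeg2 replicate 2, 8 rose. CXCL6, a neutrophil attractant, measured 20.7 and 19.3 CPM with sg1 and 17.9 and 17.7 CPM with sg2, against 5.01 and 4.94 CPM in sgNeg2 libraries (log2 1.92 ± 0.16, adjusted p = 3.49e-06). CXCL5, another neutrophil attractant, measured 513 and 458 CPM with sg1 and 431 and 405 CPM with sg2, against 209 and 232 CPM in sgNeg2 libraries (log2 1.03 ± 0.10). CXCL8 rose by 0.93 ± 0.12 and CCL28, a mucosal chemokine, by 1.80 ± 0.19. Each of these had edited libraries above both controls, as nearly all called genes did. CXCL10, which attracts T cells through CXCR3, measured 559 and 571 CPM with sg1 and 532 and 514 CPM with sg2, against 342 and 339 CPM in sgNeg2 libraries (log2 0.68 ± 0.08, adjusted p = 7.17e-05). CXCL9, another CXCR3 ligand, rose by 0.43 ± 0.12 (adjusted p = 0.0321). That call did not hold when sgNeg2 replicate 1 (adjusted p = 0.199) or replicate 2 (adjusted p = 0.207) was left out, nor with the replicate block or without 3 other libraries (sg1 replicate 1 and sg2 replicate 1 with no IFN, and IFN sg1 replicate 2). CXCL11 changed by 0.36 ± 0.13 with the guides pooled and did not pass the test (adjusted p = 0.103), but 4 of 20 alternatives called it higher. With the guides apart it rose by 0.56 with sg1 (adjusted p = 0.000155) and by 0.13 with sg2 (adjusted p = 0.227). With GC offsets the changes were 0.40 (adjusted p = 4.02e-05) and 0.37 (adjusted p = 9.97e-05).

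**Figure D2:**
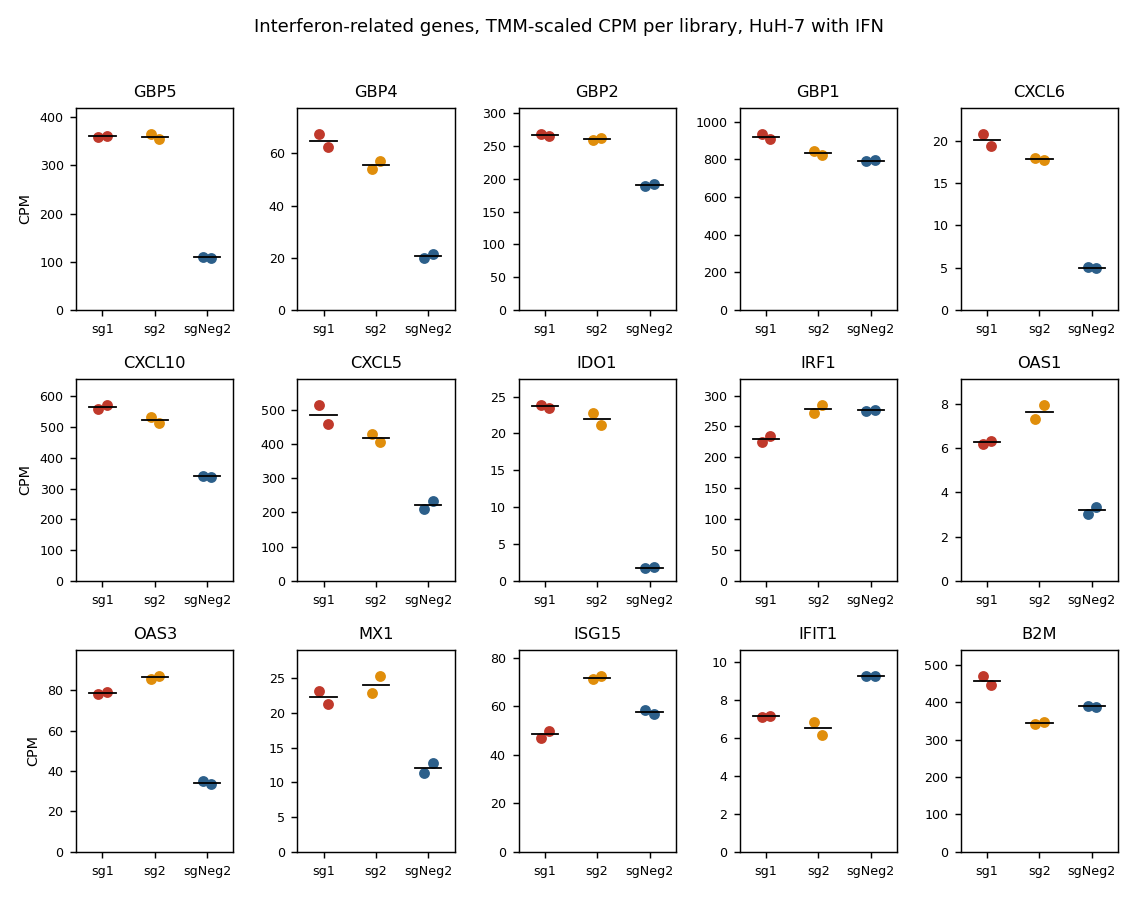
TMM-scaled CPM of 15 interferon-related genes (vertical axes, from 0) in each HuH-7 library with IFN, for guide sg1, guide sg2 and sgNeg2. Points are libraries and bars are group means of 2. GBP5 lies at 354 to 365 CPM in knockout libraries and at 108 and 110 CPM in sgNeg2 libraries, whereas for IRF1, ISG15 and B2M the sgNeg2 libraries lie within the range of the edited ones.

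Of 48 antiviral interferon-stimulated genes, 13 rose and 1 fell (median log2 0.13), so most members did not pass the test. Without sgNeg2 replicate 1, 7 rose, and without sgNeg2 replicate 2, 6 rose, and 0 fell in both cases. OAS3, an enzyme that makes the 2-5A messenger upon sensing double-stranded RNA, measured 78.0 and 79.3 CPM with sg1 and 85.7 and 86.9 CPM with sg2, against 34.9 and 33.7 CPM in sgNeg2 libraries (log2 1.27 ± 0.10). MX1, a GTPase that blocks viral replication, measured 23.2 and 21.3 CPM with sg1 and 22.9 and 25.3 CPM with sg2, against 11.4 and 12.8 CPM in sgNeg2 libraries (log2 0.94 ± 0.14). Both were higher in every edited library, as nearly all called rises were, and OAS1 (log2 1.12 ± 0.16) rose with them. IFIT1, which binds viral RNA, measured 7.11 and 7.17 CPM with sg1 and 6.85 and 6.16 CPM with sg2, against 9.24 and 9.24 CPM in sgNeg2 libraries. Its pooled change (log2 -0.44 ± 0.14) did not pass the test (adjusted p = 0.0581), but 5 of 20 alternatives called it lower. With the guides apart the change was -0.37 with sg1 (adjusted p = 0.0566) and -0.51 with sg2 (adjusted p = 0.0115).

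Of 12 interferon regulatory factors and feedback genes, which act upstream of these targets, edgeR called 0 with the guides pooled. In that comparison 1 had an unadjusted p below 0.05, DESeq2 called 1, and GC offsets gave 1 call in each direction. When sg1 replicate 1 or 2, or the no-IFN sg2 replicate 2, was left out, 1 rose. With the guides apart, edgeR called 3 lower and 0 higher with sg1, and 1 higher and 0 lower with sg2. Between the guides, 5 were higher and 0 lower in sg2 than in sg1. The matching shares of all genes tested were 16.5% lower with sg1, 11.1% higher with sg2 and 16.8% higher in sg2 than in sg1. IRF1 measured 225 and 234 CPM with sg1 and 271 and 284 CPM with sg2, against 275 and 277 CPM in sgNeg2 libraries (log2 -0.12 ± 0.09, adjusted p = 0.439). For IRF1 the sg1 libraries were low and the sg2 libraries overlapped the control. Among 15 receptors, Janus kinases and STATs, 4 rose and 0 fell, without sgNeg2 replicate 2, 2 rose, and with GC offsets 7 rose and 4 fell. IFNGR1, a chain of the type II interferon receptor, measured 68.6 and 67.6 CPM with sg1 and 57.2 and 54.3 CPM with sg2, against 35.6 and 36.6 CPM in sgNeg2 libraries (log2 0.78 ± 0.12). IFNLR1, a chain of the type III receptor, rose by 1.06 ± 0.14.

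Of 19 class I antigen presentation genes, 2 rose and 0 fell (median log2 0.04), and 0 were called when either sgNeg2 library was left out. B2M, the light chain of class I molecules, measured 470 and 446 CPM with sg1 and 342 and 346 CPM with sg2, against 390 and 388 CPM in sgNeg2 libraries, so the guides lay on opposite sides of the control. TAP1, a peptide transporter subunit, changed by 0.14 ± 0.25 (adjusted p = 0.789). HLA-B, 1 of the 2 rises, rose by 0.53 with sg1 (adjusted p = 0.00509) and by 0.93 with sg2 (adjusted p = 7.86e-05). With the guides apart, 5 of the 19 rose and 2 fell with sg1, and 3 rose and 1 fell with sg2. Among all genes tested 7.11% were higher and 5.27% lower with the guides pooled. The shares were 9.97% and 16.5% with sg1, and 11.1% and 19.7% with sg2.

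IDO1, which starts tryptophan breakdown and is an interferon target, measured 23.8 and 23.5 CPM with sg1 and 22.7 and 21.2 CPM with sg2, against 1.70 and 1.92 CPM in sgNeg2 libraries (log2 3.65 ± 0.18, adjusted p = 9.70e-08). KYNU, a later enzyme of the same pathway, rose by 0.91 ± 0.10. NOS2, the inducible nitric oxide synthase, rose by 2.76 ± 0.44, at a low level of 0.797 to 1.72 CPM in knockout libraries and 0.151 and 0.236 CPM in sgNeg2 libraries. WARS, the tryptophanyl-tRNA synthetase and also an interferon target, fell to 876 and 871 CPM with sg1 and 896 and 886 CPM with sg2, against 1287 and 1302 CPM in sgNeg2 libraries (log2 -0.55 ± 0.06, adjusted p = 3.01e-05). Thus IDO1 rose and WARS fell in all 4 edited libraries, which adds nothing to a call. Of the 29 ATF4 targets and tRNA synthetases described below, 16 fell and 0 rose, and a link to the fall of WARS was not tested. Of the 12 tryptophan and arginine enzymes, 5 rose and 1 fell, and 3 rose when either sgNeg2 library was left out.

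Of 16 NF-kappaB factors and targets, 6 rose and 0 fell (median log2 0.30). TNFAIP3 (A20), a feedback inhibitor, measured 89.4 and 90.6 CPM with sg1 and 83.5 and 89.2 CPM with sg2, against 45.3 and 41.3 CPM in sgNeg2 libraries (log2 1.03 ± 0.08). TNFAIP2 rose by 0.79 ± 0.11 and NFKBIA, the inhibitor of NF-kappaB, by 0.70 ± 0.11. CSF1, the macrophage growth factor, rose by 0.92 ± 0.11 and NT5E (CD73), which makes adenosine, by 0.92 ± 0.11.

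Mucosal and lysozyme defence genes rose in 8 of 13 members tested, and 0 fell (median log2 1.10). PIGR, the carrier of secreted antibodies across epithelia, measured 213 and 212 CPM with sg1 and 210 and 219 CPM with sg2, against 58.4 and 60.4 CPM in sgNeg2 libraries (log2 1.85 ± 0.08, adjusted p = 4.41e-08). LYZ, lysozyme, measured 239 and 244 CPM with sg1 and 229 and 221 CPM with sg2, against 86.9 and 83.9 CPM in sgNeg2 libraries (log2 1.45 ± 0.11). Every edited library exceeded both controls for each gene, as for nearly all called rises. LYZ is also on the leukocyte list, whose sum was 387 to 423 CPM in knockout libraries and 250 to 256 CPM in sgNeg2 libraries, while PTPRC had 0 counts. A change in the number of cells of a type and a change in RNA per cell cannot be told apart in bulk libraries.

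Acute phase and complement genes, which hepatocytes secrete, rose in 15 of 27 members and fell in 1 (median log2 0.52). SAA1, serum amyloid A, measured 53.5 and 52.9 CPM with sg1 and 71.6 and 68.0 CPM with sg2, against 27.4 and 24.8 CPM in sgNeg2 libraries (log2 1.24 ± 0.13). ORM1 rose by 1.28 ± 0.21 and C8B, of the terminal complement complex, by 1.45 ± 0.18. SAA1 and ORM1 have near-identical neighbours that can share reads. Hepatocyte plasma proteins were split, with 10 higher and 10 lower of 44 tested. AHSG, fetuin-A, measured 28.4 and 29.8 CPM with sg1 and 37.6 and 42.3 CPM with sg2, against 5.11 and 5.68 CPM in sgNeg2 libraries (log2 2.68 ± 0.20), while F12, coagulation factor XII, measured 2.16 to 3.01 CPM in knockout libraries and 5.96 and 6.67 CPM in sgNeg2 libraries (log2 -1.29 ± 0.19). Without sgNeg2 replicate 1 the split was 6 higher and 3 lower, and without replicate 2 it was 4 and 2. ALB, albumin, did not pass the test (log2 -0.10 ± 0.09).

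Fewer falls than rises reached 2-fold, though most rises of that size were of genes under 1 CPM in sgNeg2 libraries. JAG1, a Notch ligand on chromosome 20, measured 134 and 140 CPM with sg1 and 138 and 144 CPM with sg2, against 316 and 328 CPM in sgNeg2 libraries (log2 -1.21 ± 0.06, adjusted p = 4.41e-08). TRABD2B, a metalloprotease that cleaves Wnt proteins, measured 3.32 and 4.04 CPM with sg1 and 4.03 and 4.08 CPM with sg2, against 14 and 13 CPM in sgNeg2 libraries (log2 -1.81 ± 0.21). SLC22A3, an organic cation transporter, fell by 1.58 ± 0.15 and VSNL1, a neuronal calcium sensor, by 1.23 ± 0.10 on the log2 scale. All edited libraries lay below both controls, as the rule that chose these falls required. The largest fall by value, FRG1 (log2 -3.59 ± 0.77), belongs to a multi-copy family, did not pass the test with the 6 libraries fitted alone (adjusted p = 0.0742) and had no adjusted p from DESeq2.

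ATF4 targets and tRNA synthetases, the genes of amino acid supply, fell in 16 of 29 members and rose in 0 (median log2 -0.33). CARS, the cysteinyl-tRNA synthetase, measured 17.0 and 22.9 CPM with sg1 and 17.4 and 26.8 CPM with sg2, against 44.6 and 55.6 CPM in sgNeg2 libraries (log2 -1.25 ± 0.20). STC2, a secreted stress-induced glycoprotein, fell by 0.54 ± 0.07. The count was 7 without sgNeg2 replicate 1, 7 without replicate 2 and 7 with the 6 libraries fitted alone, but 25 with GC offsets, and no member was called higher in any of these. Hepatocyte transcription factors fell in 6 of 27 members and rose in 1, with ONECUT1 at log2 -0.91 ± 0.09 and GATA6 at -0.61 ± 0.07. The falls among them numbered 2 without sgNeg2 replicate 1 and 13 with GC offsets.

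**Figure D3:**
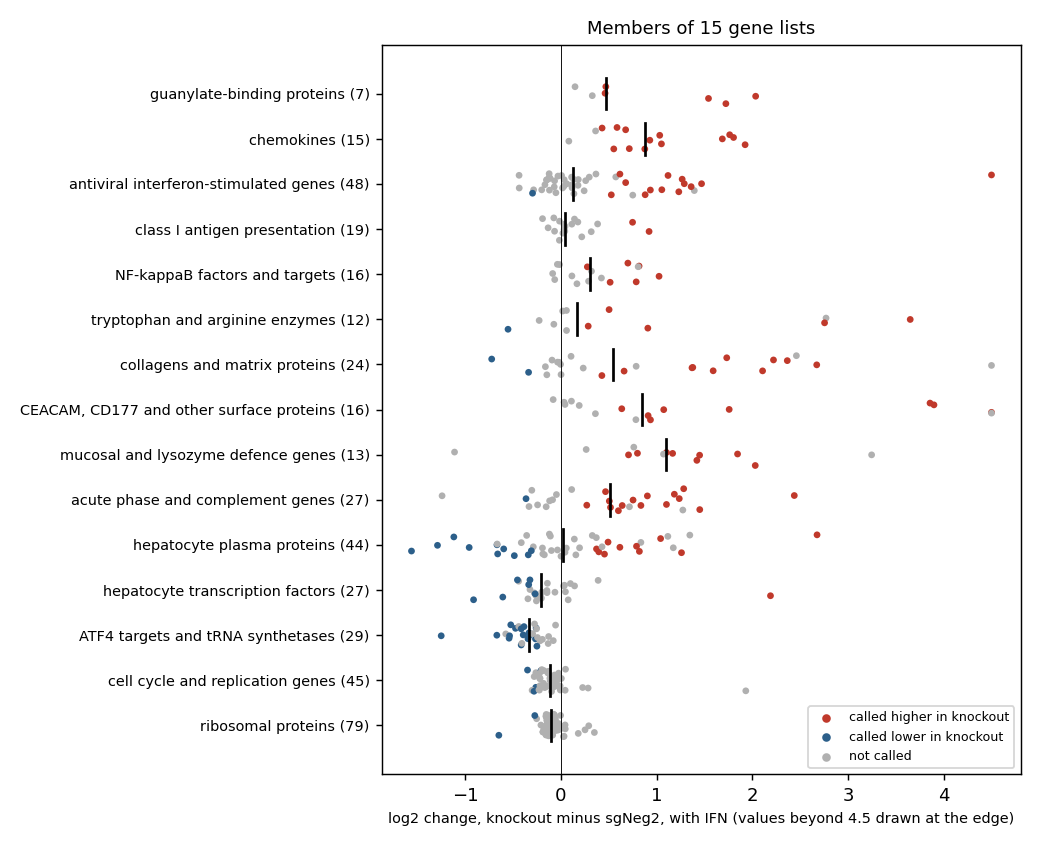
Log2 change of knockout minus sgNeg2 libraries with IFN (horizontal axis) for the tested members of 15 gene lists, with the number tested in parentheses. Points are genes, coloured by call, and black bars are medians, which run from 1.10 for mucosal and lysozyme defence genes to -0.33 for ATF4 targets and tRNA synthetases.

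The guides differed from each other in many genes. Against sgNeg2, 1640 genes were higher (9.97% of those tested) and 2719 lower (16.5%) with sg1, and 1833 were higher (11.1%) and 3236 lower (19.7%) with sg2, in comparisons that share the control libraries. With the 6 IFN libraries fitted alone the split was 2702 higher and 2802 lower with sg1, and 3038 higher and 3189 lower with sg2. Without the no-IFN sgNeg2 replicate 2 it was 1797 higher and 1372 lower with sg1, so the larger side turned. In the fit of all 12 libraries these were together 4359 genes (26.5%) with sg1 and 5069 (30.8%) with sg2. Between the guides, sg2 was higher than sg1 for 2768 genes (16.8%) and lower for 2889 (17.6%), 34.4% together. Without sgNeg2 replicate 1 or 2 the calls with sg1 numbered 2378 and 2708, and without sg1 replicate 1 or 2 they numbered 2237 and 2784. With sg2 they numbered 3253 without sgNeg2 replicate 2 and 2971 without sg2 replicate 2. Between the guides they numbered 2663 without sg1 replicate 1 and 2369 without sg2 replicate 2. These differences followed the GC content of the transcripts. Over 15327 genes with a GC value, Spearman's rho between GC content and the log2 change was 0.66 for sg2 minus sg1, 0.40 for sg2, -0.30 for sg1 and 0.07 for the pooled knockout, a description across genes of the same libraries. In the highest of 10 equal bins of GC content the median change was 0.19 with sg2 and -0.28 with sg1. In the lowest bin it was -0.25 with sg2 and 0.07 with sg1. Replicates of the same guide also differed with GC content. For replicate 2 minus replicate 1 with IFN, over 12124 genes, rho was 0.31 for sg1, 0.41 for sg2 and -0.18 for sgNeg2. These shifts were smaller in size. In the lowest and highest of wider GC bins, the median was -0.07 and 0.06 between sg2 replicates. It was -0.05 and 0.05 between sg1 replicates, beside -0.29 and 0.38 for sg2 minus sg1. With offsets that remove each library's trend with GC content, the genes called between guides numbered 1539.

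**Figure D4:**
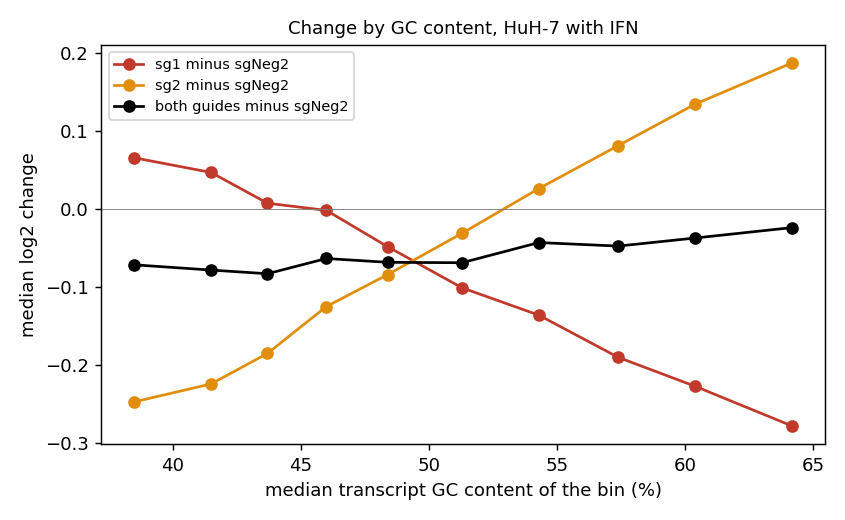
Median log2 change against sgNeg2 (vertical axis) in 10 equal bins of genes ordered by transcript GC content (horizontal axis, percent), for sg1, sg2 and the pooled guides. The sg1 line falls and the sg2 line rises with GC content, while the pooled line stays between -0.08 and -0.02.

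DOT1L was higher with sg2 than with sg1 by 0.58 on the log2 scale (adjusted p = 0.000202), and by 0.21 with GC offsets (adjusted p = 0.0329). Ribosomal protein genes showed the guide difference as a group, with 53 of 79 higher and 1 lower in sg2 than in sg1, and 54 higher and 0 lower with GC offsets. Against sgNeg2, 0 of the 79 were higher and 56 lower with sg1, and 11 were higher and 10 lower with sg2. With 1 of the 12 libraries left out, 36 to 70 were lower with sg1, where the lowest count came without IFN sg1 replicate 1, IFN sgNeg2 replicate 1 or the no-IFN sgNeg2 replicate 2, and with sg2 5 to 25 were higher and 2 to 18 lower. With the 6 IFN libraries fitted alone, 37 were higher and 11 lower with sg2. RPS29 measured 188 and 161 CPM with sg2 and 85.2 and 75.8 CPM with sg1, beside 109 and 100 CPM in sgNeg2 libraries. NME2, a nucleoside diphosphate kinase, measured 7.08 and 6.99 CPM with sg2 and 1.62 and 1.65 CPM with sg1, a log2 difference of 2.1 (adjusted p = 0.000102) that was 1.96 with GC offsets. In the other direction, DDX24, an RNA helicase, measured 3.29 and 3.98 CPM with sg2 and 42.8 and 38.6 CPM with sg1, beside 3.76 and 3.26 CPM in sgNeg2 libraries. That gene stood apart in the sg1 libraries, and its call was lost without sg2 replicate 2.

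Differences between guides in interferon genes depended on the GC offsets in both directions. The difference of sg2 minus sg1 was 0.28 for IRF1 (adjusted p = 0.0013) and -0.41 for B2M (adjusted p = 0.000246). With GC offsets it was 0.07 for IRF1 (adjusted p = 0.276) and -0.10 for B2M (adjusted p = 0.213). ISG15, a ubiquitin-like protein, measured 71.2 and 72.3 CPM with sg2 and 47.0 and 49.8 CPM with sg1, beside 58.5 and 56.7 CPM in sgNeg2 libraries, and its difference of 0.57 became 0.16. Other interferon genes differed between guides with GC offsets and did not pass the test without them. The difference of sg2 minus sg1 for GBP5 was 0.26 with offsets (adjusted p = 0.000165) and -0.01 without (adjusted p = 0.966). For CXCL10 it was 0.28 with offsets (adjusted p = 0.000312) and -0.11 without (adjusted p = 0.063), and for GBP2 it was 0.18 (adjusted p = 0.00549) and -0.03 (adjusted p = 0.639). The guide and the GC trend, which also appeared between replicates of the same guide, cannot be told apart for these genes. TUBB2B, a neuronal-type tubulin, kept a difference of 0.39 with GC offsets (adjusted p = 0.00113), at 50.8 and 55.0 CPM with sg2 and 34.5 and 36.5 CPM with sg1, both above the 12 and 10.3 CPM in sgNeg2 libraries.

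The genes called in the knockout with IFN were then read in HuH-7 cells given EPZ-5676. Of the 1170 rises, 1034 were also tested there, and 723 (69.9%) were higher with EPZ-5676 and 6 lower. Of the 867 falls, 855 were tested, and 563 (65.8%) were lower and 23 higher. The median log2 change with EPZ-5676 was 0.60 for the rises and -0.16 for the falls. Of the falls of at least 2-fold, 56 were tested, and 21 (37.5%) were lower and 0 higher. Of the rises of that size, 602 were tested, and 417 (69.3%) were higher and 0 lower. Over the 14868 genes tested in both, 15.3% were higher and 18.8% lower with EPZ-5676 (15.1% and 18.6% of all 15023 tested there). HAS2 rose by 3.26 on the log2 scale with EPZ-5676, CD109 by 2.40, CXCL10 by 1.87, GBP5 by 2.64 and PIGR by 1.56, and JAG1 fell by 0.41. CARS did not pass the test there (log2 0.34, adjusted p = 0.480), and IDO1 and CD177 were not tested. DOT1L transcript itself changed by -0.10 with the inhibitor.

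The knockout effect with IFN was set against the effect without IFN in 1 fit. It differed for 83 of 16448 genes (0.505%), 34 with a higher and 49 with a lower log2 change with IFN. The count was 863 with GC offsets, 409 with DESeq2 and 28 with the replicate block. For GBP5 the log2 change was 1.72 with IFN and 4.51 without, a difference of -2.79. Without IFN, GBP5 measured 1.8 and 1.96 CPM with sg1 and 2.1 and 2.28 CPM with sg2, against 0.129 and 0.0426 CPM in sgNeg2 libraries, where it had 3 and 1 counts. The call on this difference was lost without the no-IFN sgNeg2 replicate 2 (adjusted p = 0.211). The 83 genes became 30 without either IFN sgNeg2 library, 30 and 19 without the no-IFN sgNeg2 replicate 1 or 2, 39 and 48 without the no-IFN sg1 replicate 1 or 2, and 176 without IFN sg1 replicate 1. Libraries with and without IFN also differ in depth, which cannot be told apart from IFN here.

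**Figure D5:**
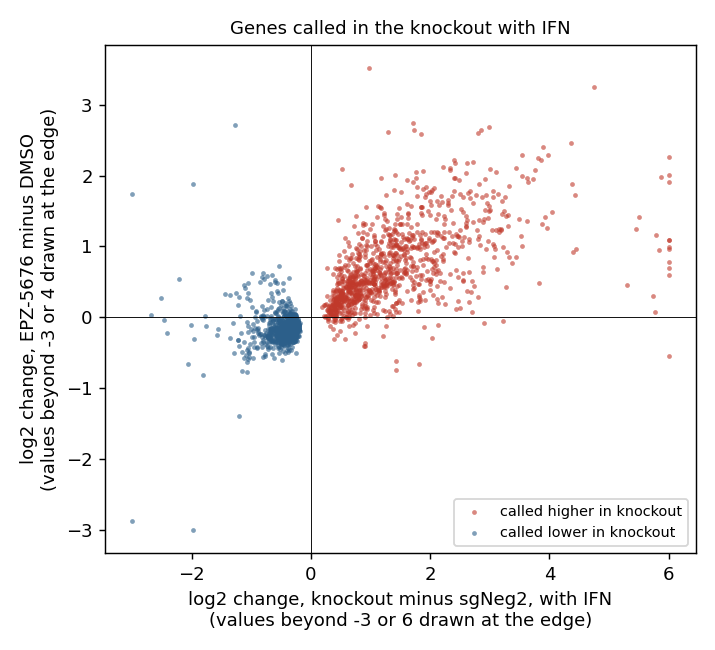
Log2 change with EPZ-5676 minus DMSO (vertical axis) against the log2 change of knockout minus sgNeg2 with IFN (horizontal axis) for genes called in the knockout and tested in both. Each point is a gene, and 723 of the 1034 called higher in the knockout were also called higher with EPZ-5676.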

How the data were processed

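RNA from HuH-7 cells was sequenced, and the authors deposited raw counts per gene symbol, 1 file per library, with no normalization recorded. Per the submitters' processing notes, the tools were HISAT2 2.2.1, Trim Galore, DESeq2 1.36.0 and SAMtools 1.9, and hg38 was the human build. No source says which program counted reads, with which annotation or strand setting.

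The tests used edgeR 4.0.16 under R 4.3.3. The 12 HuH-7 guide libraries with and without IFN were fitted together, so that they share 1 estimate of the spread, with both guides pooled or as separate groups. The EPZ-5676 and DMSO libraries were fitted apart, and genes without a count in 1 of them are not listed there. The filter was filterByExpr with a minimum count of 10 and total of 15, scaling was by TMM, and genes were tested by robust quasi-likelihood F tests, with Benjamini-Hochberg adjustment over all genes tested and calls at an adjusted p below 0.05. CPM are TMM-scaled. Standard errors come from the F statistic. Transcript GC content is the median over GENCODE transcripts, for 23898 of 26457 symbols. Promoters were matched by symbol, or by an older symbol that 1 gene claims, for 12218 of 16448 genes tested. Scripts were tested on simulated counts.

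Members, gene lists and the rule for named genes were chosen with earlier results of these data known. Named genes were the 14 largest rises and 14 largest falls of at least 5 CPM whose groups did not overlap, up to 4 called members of each list of at least 1 CPM, the 8 largest differences between guides in each direction, and a panel. Not every gene the rule gives is described, and a few are not reported here. Replicate numbers are shared by label, but correlations of deviations between same-numbered IFN libraries were -0.07, -0.03 and 0.04, so they were not taken to pair samples. Alternatives were RLE scaling, no filter, a replicate block, GC offsets (lowess, span 0.3), the 6 libraries alone, the mean of both guides, DESeq2 1.42.0 and leaving out each library. Depth was 47594968 to 61227426 counts with IFN and 19580588 to 22649969 without. The mouse libraries were not used here.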

Additional observations from a re-analysis of the deposited data

Results flagged for a closer look

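In the 4 knockout libraries with IFN, 1 library stood apart from the other 3 for 8 genes, by the gap to its nearest neighbour as a share of the range (Dixon's ratio, above its critical value for 4 samples). The ratios were 0.907 for SEMA3C, 0.902 for FRG1, 0.927 for TRABD2B, 0.890 for MLLT3, 0.871 for GBP6, 0.908 for CD82, 0.924 for GATA6 and 0.965 for MEIS2. Chance flags about 1 in 20 such groups, and 208 genes were examined. The 4 libraries hold 2 guides.

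For 18 of the named genes the knockout effect with IFN differed from the effect without IFN (interaction, adjusted p below 0.05 in edgeR). Over all genes tested, 83 passed (0.505%) and 2114 had an unadjusted p below 0.05. The log2 differences, with IFN minus without, were positive for ZEB1 (0.99), DKK1 (1.58), FGB (1.78), C8B (1.32), SAA1 (1.05), AKR1C2 (1.46), AKR1C1 (1.38) and HIST1H1C (0.71). They were negative for JAG1 (-0.50), GBP5 (-2.79), GBP1 (-0.96), APOL1 (-1.44), OAS1 (-1.99), CASP1 (-1.17), LGALS3 (-0.85), WARS (-0.47), MYC (-0.92) and RPL36A (-1.03). Under 17 alternatives the calls of AKR1C1, DKK1 and FGB held in all 17. Without sgNeg2 replicate 2 among the libraries with no IFN, the calls of the other 15 were lost except that of HIST1H1C, which was lost without the IFN sgNeg2 replicate 1, and the counts of alternatives that kept a call ran down to 8 for CASP1 and RPL36A. The libraries with IFN held more than 2-fold the counts of those without, so IFN and library depth cannot be told apart in this comparison.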

How the results depend on the processing

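Of 194 named genes tested for the pooled knockout, 117 kept their side of the threshold and their direction under every alternative, 67 lost a call under at least 1 and 8 gained one. B2M, not called, reversed to -0.04 without IFN sg1 replicate 1 and -0.01 without IFN sg1 replicate 2, with a highest value of 0.12 when 1 library was left out. ISG15, not called, reversed to -0.03 without IFN sg2 replicate 1 and -0.04 without IFN sg2 replicate 2, with a highest value of 0.16. Calls for the pooled knockout (2037) became 4328 with GC offsets, 3884 with a replicate block and GC offsets, 1000 with the 6 IFN libraries alone and 4182 as the mean of both guides, and the share of higher calls moved from 57.4% to 37.8%, 81.5% and 38.2% with GC offsets, the 6 libraries and the mean. With the replicate block alone the calls were 1528. Between guides (5657) GC offsets gave 1539, of which 64.7% were higher. The interaction (83) became 28 with a replicate block, 863 with GC offsets and 409 with DESeq2. Leaving out 1 library gave 960 to 2184 calls for the pooled knockout, 2237 to 6455 for sg1, 2971 to 6883 for sg2, 2369 to 7398 between guides, 19 to 176 for the interaction and 4303 to 4659 for EPZ-5676. The highest of these counts for sg1, sg2 and between guides came without a no-IFN sg2 library. The log2 difference between the no-IFN sg2 replicates had a standard deviation over genes of 0.37, beside 0.23 to 0.27 in the other guide groups. The cause of these shifts was not tested, and a left-out library also leaves fewer samples. Each control group of 2 libraries limits the precision, as do low counts below about 1 CPM.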
